A study of Mus musculus with 20 samples.

Results

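The sites described here are places in the genome where the nuclear receptor PPARgamma was bound in mature 3T3-L1 adipocytes on day 6, and where none of the factors profiled earlier in differentiation had a peak. A PPARgamma day 6 peak was kept when it shared not even 1 bp with any peak of 10 lists. These were 4 lists of C/EBPbeta (from day 0 to day 2), a list of C/EBPdelta before induction and another at 4 hours, 1 list each for GR, RXR and Stat5a at 4 hours, and PPARgamma's own list of day 2. The sites were thus selected on the presence of a peak on day 6 and on its absence from these lists. This left 1912 of 5493 peaks (34.8%) as sites without an earlier factor. The other 3581 PPARgamma day 6 peaks had at least 1 earlier factor and serve as the set they are compared with.

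The cells were 3T3-L1, an established mouse preadipocyte line that turns into fat cells in culture. All groups were of this line and had no genetic change named in the labels. Day 0 cells were confluent and not yet induced. Those of 2 hours, 4 hours, day 1 and day 2 had received serum of fetal bovine origin with insulin, 3-isobutyl-1-methylxanthine (a phosphodiesterase inhibitor) and, as a glucocorticoid, dexamethasone. For day 6 cells, insulin and serum had followed on day 2, and serum alone after that. Open chromatin was mapped by sequencing DNase I hypersensitive sites (DHS) at all 6 times, and RNA polymerase II (RNA Pol II), which marks transcribed regions, on day 0 and at 4 hours. Each group was 1 library with 1 list of peak positions on mouse build mm9 and no peak heights. No difference could therefore be tested against replicate spread, and no p-value is given. Intervals are exact (Clopper-Pearson) 95% intervals over peaks and cover counting error only. A site missing from a list is not shown to be closed or unbound. Read depth is unknown, and the DHS lists ran from 9055 peaks (2 hours) to 35389 (day 1), so levels at different times were not ranked and each is set beside that of the other PPARgamma sites in the same list.

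PPARgamma binds DNA as a partner of RXR and is the main regulator of fat cell genes, among them genes of lipid uptake and storage. C/EBPbeta and C/EBPdelta are induced within hours of the hormonal stimulus and act upstream of the gene for PPARgamma. GR, the glucocorticoid receptor, responds to dexamethasone, and Stat5a is activated by cytokine and growth hormone signalling. C/EBPalpha, which shares many sites with PPARgamma in mature fat cells, was not analysed here, and binding outside the 10 lists is not seen.

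Most of the selection was done by a few lists. C/EBPbeta of day 2 lay at 2727 PPARgamma day 6 peaks (49.6%), C/EBPbeta of 4 hours at 2123 (38.6%) and PPARgamma of day 2 at 2116 (38.5%). Some peaks failed the rule through 1 list alone. PPARgamma of day 2 was the sole reason for 473 peaks, C/EBPbeta of day 2 for 288, C/EBPbeta of day 0 for 62 and C/EBPbeta of 4 hours for 53. GR, Stat5a and RXR removed 5, 9 and 3 peaks that no other list covered. These values follow from the rule and are a description.

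The distance to earlier binding varied widely among the sites. It concerns the lists used to choose them and is a description. The median gap between a site and the nearest peak of the 10 lists was 6658 bp, with quartiles of 2209 and 17808 bp. Within 500 bp lay 158 sites (8.26%), within 10000 bp lay 1150 (60.1%), and 138 (7.22%) were more than 50000 bp away. Just inside the rule lay 57 sites with a gap of at most 200 bp, and just outside it 41 PPARgamma peaks that shared at most 200 bp with an earlier factor peak. From day 0 to day 6, the 6 DHS lists held 10.5%, 5.26%, 28.1%, 31.6%, 40.4% and 33.3% of those just inside, against 19.5%, 22.0%, 39.0%, 41.5%, 36.6% and 24.4% of those just outside. Shares were thus lower just inside up to day 1 and higher on day 2 and day 6. In no DHS list were 49.1% (35.6 to 62.7) of those just inside, against 46.3% (30.7 to 62.6) of those just outside. With so few sites the intervals were wide, for day 2 from 27.6 to 54.2% inside, against 22.1 to 53.1% outside. Among the 138 farthest sites, 18.8% (interval 12.7 to 26.4) were in the day 2 list and 19.6% (13.3 to 27.2) in the day 6 list.

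Sites without an earlier factor were in every DHS list less often than the other PPARgamma day 6 sites. On day 0, 117 of them (6.12%, interval 5.09 to 7.29) had a DHS peak, against 14.0% (12.8 to 15.1) of the other sites and 11.2% of the whole PPARgamma day 6 list. At 2 hours the DHS list held 71 (3.71%, 2.91 to 4.66), against 19.5% of the other sites and 14.0% of the whole list. The 4 hours list held 250 (13.1%, 11.6 to 14.7), against 43.3% and 32.8%. These early shares were all below those of the other sites by more than the counting intervals.

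By day 1, DHS peaks lay at 338 sites without an earlier factor (17.7%, 16.0 to 19.5), against 55.6% of the other sites and 42.4% of the whole list. On day 2 the number was 448 (23.4%, 21.5 to 25.4), against 74.6% (73.1 to 76.0) and 56.8%. For day 6, the day on which PPARgamma binding itself was measured, it was 382 (19.98%, 18.2 to 21.8), against 36.6% (35.1 to 38.2) and 30.8%. Set against the other sites, the share at sites without an earlier factor was 0.438 times as high on day 0, 0.190 times at 2 hours, between 0.302 and 0.318 times at 4 hours, day 1 and day 2, and 0.545 times on day 6. By this ratio the gap was widest at 2 hours and narrowest on day 6. In percentage points it was narrowest on day 0 (-7.84) and widest on day 2 (-51.2). Which time had the widest gap thus depended on the measure, and the lists differ in length. With all 6 DHS lists shortened by width to 9055 peaks, the shares at sites without an earlier factor were 5.91%, 3.71%, 5.75%, 6.22%, 8.58% and 14.3% from day 0 to day 6. The other sites then had 13.3%, 19.5%, 18.4%, 23.5%, 40.6% and 27.9%, higher at all 6 times. At sites without an earlier factor the order of the times thus changed with list length. Their day 6 share was then above that of each earlier time, while at the other sites day 2 stayed the highest. The cut kept only the widest peaks, from 35389 on day 1 and 25097 on day 2 but from 11936 on day 6. It took more from the longer lists, so it does not rank the times either.

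**Figure D1:**
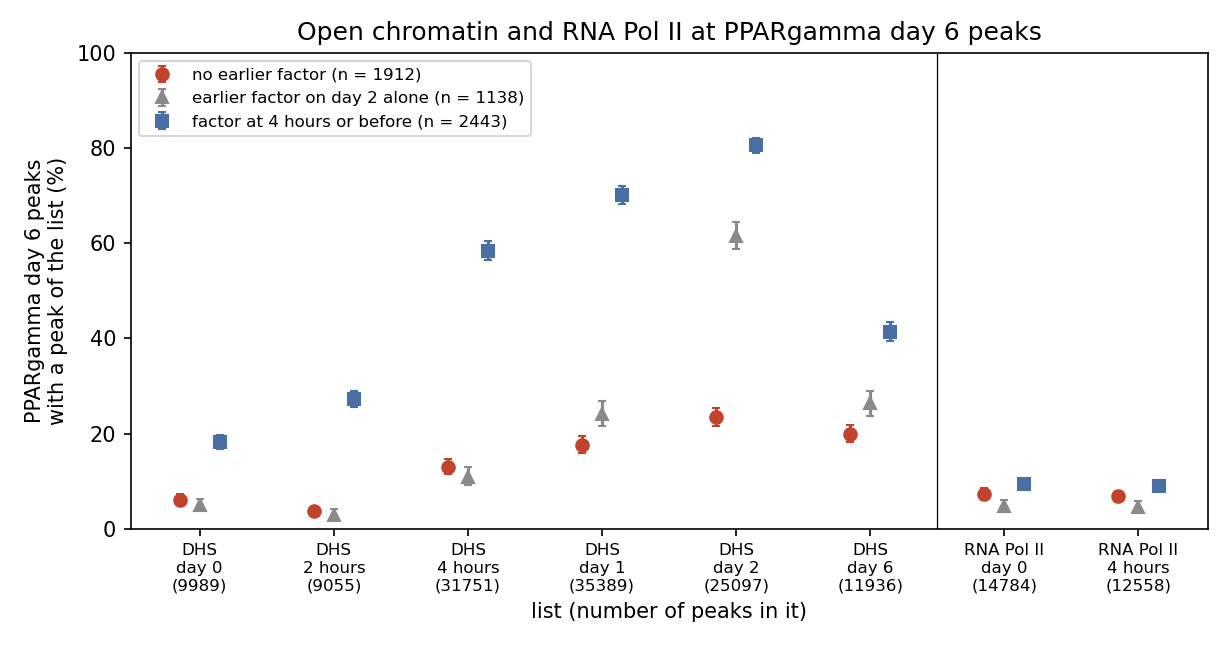
Share of PPARgamma day 6 peaks (y axis, %) with a peak in each of the 6 DHS and 2 RNA Pol II lists (x axis, number of peaks in the list in brackets), for sites without an earlier factor (circles, n = 1912), sites with an earlier factor on day 2 alone (triangles, n = 1138) and sites with a factor at 4 hours or before (squares, n = 2443); bars are exact 95% intervals over peaks. Circles and triangles lie close together up to 4 hours (13.1% and 10.9%) and are apart on day 2 (23.4% and 61.6%).

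The other sites were split by when a factor was first listed. Of them, 1138 had an earlier factor on day 2 alone, that is C/EBPbeta or PPARgamma of day 2, and 2443 had 1 at 4 hours or before. PPARgamma had no list before day 2, so the time at which it first bound is not shown. Up to 4 hours, sites without an earlier factor were in the DHS lists about as often as those with a factor on day 2 alone. The shares were 6.12% and 4.92% (3.74 to 6.34) on day 0, 3.71% and 2.99% (2.08 to 4.15) at 2 hours and 13.1% and 10.9% (9.14 to 12.9) at 4 hours. On day 1 they were 17.7% and 24.2% (21.7 to 26.8), and on day 2 they were 23.4% and 61.6% (58.7 to 64.4). For the DHS list of day 6 they were 19.98% (18.2 to 21.8) and 26.4% (23.8 to 29.0). Sites without an earlier factor were thus again the lower, as on day 1. Sites with a factor at 4 hours or before were already in the 4 hours DHS list in 58.4% of cases, in the day 2 list in 80.6% and in the day 6 list in 41.4%.

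The other sites also included regions bound by several factors early on. At 698 of the other sites, 3 or more of the 5 factors profiled at 4 hours had been present (both C/EBPs, RXR, GR and Stat5a). DHS peaks of 2 hours lay at 3.71% of sites without an earlier factor, against 52.0% (48.2 to 55.8) of these multi-factor sites, and those of 4 hours at 13.1%, against 84.7% (81.8 to 87.3). On day 6 the shares were 19.98% and 47.1% (43.4 to 50.9).

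The share of sites in the day 2 DHS list was higher with each further earlier list up to 9, and differed most between 0 and 2 lists. It was 23.4% with 0 lists, 53.0% (49.7 to 56.2) with 1 list, 71.5% (67.7 to 75.0) with 2 and 94.4% with all 10. In the day 6 list the shares were 19.98%, 28.3%, 29.4% and 55.6% for the same numbers. In the 4 hours list the values were 13.1%, 18.6%, 18.2% and 86.1%. Sites without an earlier factor thus had the lowest share in the lists of 4 hours, day 2 and day 6. In the day 0 list they did not, with 6.12%, against 5.61% (3.92 to 7.75) for sites with 2 lists. The lists counted are those of the rule itself, so this order is a description. RNA Pol II of day 0 had no such order: 7.27% with 0 lists, between 5.12% and 12.1% with 1 to 9, and 9.72% with 10.

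**Figure D2:**
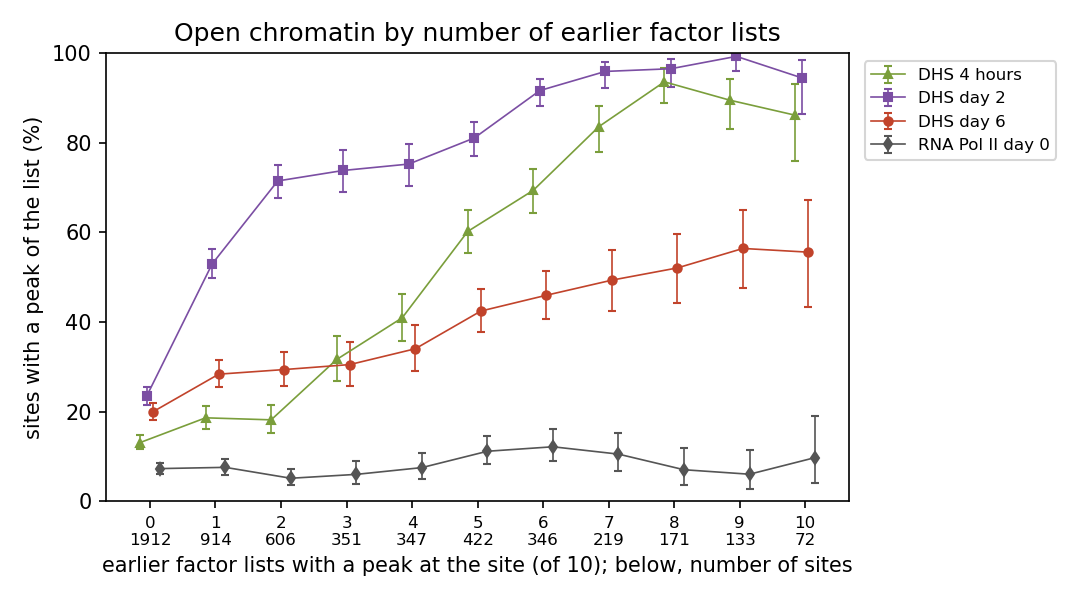
Share of PPARgamma day 6 sites (y axis, %) with a DHS peak of 4 hours, day 2 or day 6 or an RNA Pol II peak of day 0, by how many of the 10 earlier factor lists hold a peak at the site (x axis, number of sites below); bars are exact 95% intervals over peaks. The points at 0 are the sites without an earlier factor, with 23.4% in the day 2 list, against 53.0% for sites in 1 list.

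Most sites without an earlier factor were listed as open at no time. None of the 6 DHS lists held 1272 of them (66.5%, interval 64.4 to 68.6), against 19.6% (18.3 to 20.9) of the other sites and 35.9% of the whole list. With DHS lists of equal length the shares were 81.8%, against 47.6%. In the rest, 117 were first listed on day 0, 10 at 2 hours, 134 at 4 hours, 113 on day 1, 165 on day 2 and 101 on day 6. Only 10 sites (0.523%) therefore entered at 2 hours, against 326 (9.10%) of the other sites and 6.12% of the whole list. A first listing was found at 4 hours for 7.01%, against 20.9% and 16.1%, on day 1 for 5.91%, against 14.7% and 11.7%, and on day 2 for 8.63%, against 20.6% and 16.4%. The DHS list of day 2 and no other held 109 sites (5.70%, 4.70 to 6.84), against 16.1% of the other sites and 12.5% of the whole list. Day 2 and day 6 without the earlier times made up 56 sites (2.93%), against 4.44% and 3.91%, and all 6 lists held 59 sites (3.09%, 2.36 to 3.96), against 9.38% and 7.19%.

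A first listing on day 6 had the opposite order. The DHS list of day 6 and no other held 101 sites without an earlier factor (5.28%, 4.32 to 6.38). It held 42 of the other sites (1.17%, 0.847 to 1.58), a ratio of 4.50, and 2.60% of the whole list. Sites with an earlier factor on day 2 alone had 2.20% (1.43 to 3.23), and those with a factor at 4 hours or before 0.696%. The rule leaves out sites with a C/EBPbeta or PPARgamma peak on day 2, and its part in this order was not tested. With lists of equal length, the shares at sites without an earlier factor and at the other sites were 6.54% and 5.08%. The ratio thus depended on the length of the DHS lists. Of the 382 sites in the day 6 DHS list, 258 (67.5%, 62.6 to 72.2) were also in that of day 2, against 95.4% (94.2 to 96.5) of 1312 other sites. In the DHS list of day 1 were 57.1% of these sites, against 83.4%, and in that of day 0 28.0% (23.6 to 32.8), against 34.0% (31.4 to 36.6). Read forwards, 258 of the 448 sites in the day 2 DHS list were also in that of day 6 (57.6%, 52.9 to 62.2). Of 2671 other sites, 46.9% (45.0 to 48.8) were. An RNA Pol II peak of day 0 or 4 hours lay at 132 of the 448, against 340 of the 2671. This comparison was neither split by RNA Pol II nor recomputed with lists of equal length.

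**Figure D3:**
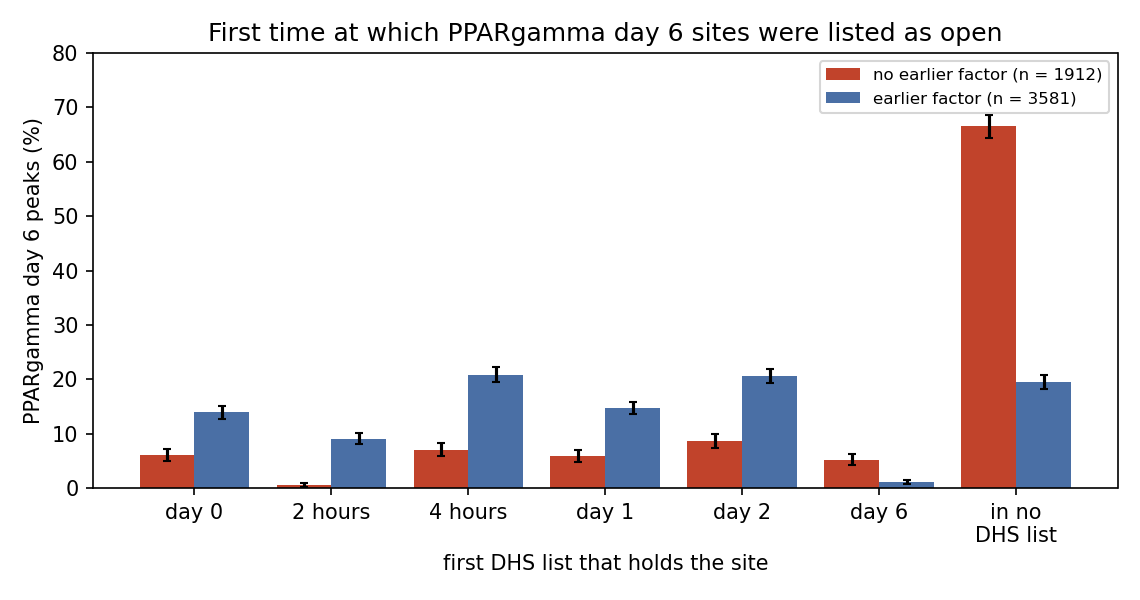
First of the 6 DHS lists that holds a site (x axis), as a share of sites (y axis, %) without an earlier factor (left bars, n = 1912) and with one (right bars, n = 3581); error bars are exact 95% intervals over peaks. The left bars are lower at each time up to day 2 and higher for a first listing on day 6 (5.28% and 1.17%) and for no listing (66.5% and 19.6%).

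Seen from open chromatin, PPARgamma sites without an earlier factor were a small part of each DHS list. Their part was larger among the peaks that the day 6 list alone held. Of all 11936 DHS peaks of day 6, 392 (3.28%) overlapped such a site and 1354 (11.3%) another PPARgamma day 6 site. Among the 474 of them that overlapped no peak of another DHS list, 104 (21.9%) overlapped a site without an earlier factor and 52 (11.0%) another PPARgamma site. For the 4148 DHS peaks found on day 2 alone the order was the other way round, with 114 (2.75%) and 618 (14.9%). It was also the other way round for peaks of 4 hours alone (0.174% and 0.522%) and of day 1 alone (0.546% and 1.08%). Of 222 peaks found on day 0 alone, 2 overlapped a site without an earlier factor and 0 another PPARgamma site. At 2 hours alone these were 3 and 0 of 106. None of these overlaps was recomputed with lists of equal length.

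Where both were listed, DHS and PPARgamma peaks were centred less closely at sites without an earlier factor, mainly at early times. The median distance between the middles was 269.5 bp for DHS of day 0, against 134.5 bp at the other sites. At 4 hours it was 206 bp, against 100 bp. On day 2 it was 105 bp, against 77 bp, and on day 6 it was 116 bp, against 94.3 bp. Centring was not split by RNA Pol II. In the day 0 DHS list, 81 of 117 sites without an earlier factor held RNA Pol II, against 190 of 500 other sites. The middles lay within 200 bp of each other for 36.8% (28.0 to 46.2) of sites without an earlier factor on day 0, against 65.0% (60.6 to 69.2), and for 68.8% (63.9 to 73.5) on day 6, against 77.5% (75.2 to 79.7). With lists looked up only in 200 bp at the middle of each PPARgamma peak, 17.1% of sites without an earlier factor were in the DHS list of day 6, against 33.9% of the other sites.

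RNA Pol II shares at sites without an earlier factor lay near those of the other sites as a whole. They lay between those of sites with a factor on day 2 alone and those with a factor at 4 hours or before. The day 0 list held 139 sites without an earlier factor (7.27%, 6.15 to 8.53), against 7.99% (7.12 to 8.92) of the other sites and 7.74% of the whole list. The 4 hours list held 130 (6.80%, 5.71 to 8.02), against 7.54% (6.70 to 8.45) and 7.28%. Both lists held 105 sites (5.49%), against 5.28% and 5.35%, and at least 1 of them held 164 (8.58%), against 10.2% and 9.67%. The differences for single lists lay within the counting intervals. The day 0 list held 7.27% of sites without an earlier factor, against 4.75% (3.58 to 6.15) of those with a factor on day 2 alone. It held 9.50% (8.36 to 10.7) of those with a factor at 4 hours or before. In the 4 hours list these shares were 6.80%, against 4.48% (3.35 to 5.85) and 8.96% (7.86 to 10.2). Within 10000 bp of the site, an RNA Pol II peak of day 0 was found for 29.1% (27.1 to 31.2), against 26.2% (24.8 to 27.7).

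An RNA Pol II peak divided the sites without an earlier factor into groups with unlike DHS shares. Of the 164 with RNA Pol II, 81 (49.4%, 41.5 to 57.3) were in the DHS list of day 0 and 134 (81.7%, 74.9 to 87.3) in that of 4 hours. On day 2 the number was 132 (80.5%), and on day 6 it was 115 (70.1%, 62.5 to 77.0). The 367 other sites with RNA Pol II had shares of 51.8%, 88.6%, 92.6% and 70.3% in the same 4 lists. At 2 hours the values were 28.0% (21.3 to 35.6), against 50.7% (45.4 to 55.9). Sites with RNA Pol II made up 81 of the 117 sites without an earlier factor in the day 0 DHS list, against 190 of 500 other sites, and 134 of 250 in the 4 hours list, against 325 of 1551.

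The 1748 sites with neither RNA Pol II nor an earlier factor were rarely in the early DHS lists. Only 36 (2.06%, 1.45 to 2.84) were in the DHS list of day 0, 116 (6.64%) in that of 4 hours, 316 (18.1%) in that of day 2 and 267 (15.3%, 13.6 to 17.0) in that of day 6. The 3214 other sites without RNA Pol II had shares of 9.65%, 38.1%, 72.5% and 32.8%. No DHS list held 1253 of the 1748 (71.7%), against 21.3% of the 3214. Of the sites in the DHS list of day 6 alone, 100 of 101 had no RNA Pol II peak, against 41 of 42 other sites. Whatever their DHS record, 1748 of 1912 sites without an earlier factor and 3214 of 3581 other sites had none. RNA Pol II was not profiled after 4 hours.

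**Figure D4:**
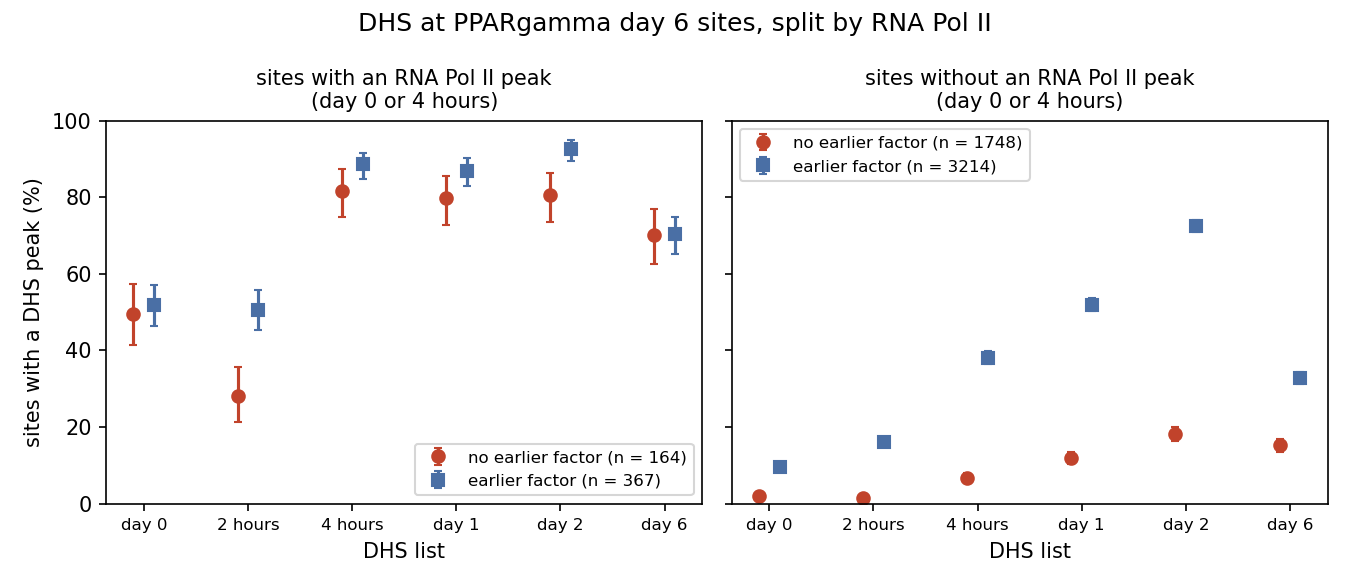
Share of PPARgamma day 6 sites (y axis, %) in each of the 6 DHS lists (x axis), for sites without an earlier factor (circles) and with one (squares), split into those with an RNA Pol II peak on day 0 or at 4 hours (left, n = 164 and 367) and those without (right, n = 1748 and 3214); bars are exact 95% intervals over peaks. In the left panel both kinds of site lie close together on day 6 (70.1% and 70.3%), and in the right panel they are far apart on day 2 (18.1% and 72.5%).

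Peaks at sites without an earlier factor were narrower. Their width was 251 bp at the least and 2436 bp at the most, with a median of 708 bp and quartiles of 611 and 835 bp. The other sites had a median of 793 bp, with quartiles of 670 and 966 bp and a range of 251 to 2988 bp. The ranges overlapped almost entirely. On 19 of 20 chromosomes the median was lower at sites without an earlier factor. Those in no DHS list had a median of 689.5 bp, those in the DHS list of day 6 alone 825 bp, and those in all 6 lists 758 bp.

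Lower DHS shares were also found among peaks of like width. All PPARgamma day 6 peaks were divided into 4 bins of equal size by width. In the narrowest bin, 251 to 642 bp, 19.6% of 659 sites without an earlier factor were in the DHS list of day 2, against 63.5% of 709 other sites, and in the widest, from 923 bp, 31.8% of 321, against 83.3% of 1060. For the DHS list of day 6 the shares were 12.9%, against 20.5%, in the narrowest bin and 35.5% (30.3 to 41.0), against 50.9% (47.9 to 54.0), in the widest. Even among the widest sites without an earlier factor, 52.0% (46.4 to 57.6) were in no DHS list, against 12.6%. Peak height was not in the lists, and its part in these differences was not tested.

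Regions are named by their mm9 position, since the lists carry no gene names. The widest site without an earlier factor was on chromosome 7 at 26174162 to 26176597 (2436 bp). It was in every DHS list except that of 2 hours and held an RNA Pol II peak of day 0, and the nearest earlier factor peak was 95 bp away. The next, on chromosome 17 at 33892594 to 33894862 (2269 bp), was in no DHS and no RNA Pol II list. The third, on chromosome 2 at 150595899 to 150598146 (2248 bp), was in the DHS lists of day 1, day 2 and day 6, with peaks of 467, 672 and 486 bp. On chromosome 12 at 40678232 to 40680223 (1992 bp), the day 2 list alone held a DHS peak. On chromosome 16 at 23145086 to 23147007 (1922 bp), DHS peaks of 521 bp on day 2 and 610 bp on day 6 were listed, and an earlier factor peak ended 96 bp from the site. Of these 5 widest sites, 3 thus had DHS peaks that were first listed on day 1 or later.

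Further sites were named by their DHS record. In the DHS list of day 6 alone, the widest site lay on chromosome 17 (27453366 to 27455180), followed by sites on chromosome 19 (56818393 to 56820056) and chromosome 2 (172976941 to 172978573), with DHS peaks of 462, 448 and 553 bp inside PPARgamma peaks of 1815, 1664 and 1633 bp. None of the 3 held RNA Pol II, and the nearest earlier factor peak was 108827, 10670 and 65545 bp away. The widest sites in no DHS list, after the one on chromosome 17, were those on chromosome 3 (87661357 to 87663174) and chromosome 13 (74162663 to 74164442). In all 6 lists, the widest site lay on chromosome 2 (131218491 to 131219924), followed by sites on chromosome 6 (71390855 to 71392244) and chromosome 17 (25970008 to 25971253). The last 2 of these had RNA Pol II at both times, and the first at neither.

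The sites farthest from any earlier factor peak were also located. On chromosome 17 at 59151151 to 59152476 the nearest such peak was 1778438 bp away, and DHS was listed on day 2 alone. On chromosome X at 96827459 to 96828011 the gap was 402684 bp, and the site was in the DHS lists of 4 hours, day 1, day 2 and day 6. On chromosome 4 at 115186464 to 115186981 it was 306950 bp, with no DHS at any time.

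Distances between neighbouring PPARgamma sites were similar for both kinds of site. The nearest other PPARgamma day 6 peak lay at a median of 32671 bp, against 30456 bp for the other sites, and within 20000 bp for 41.0% (38.8 to 43.2), against 42.1% (40.4 to 43.7). That neighbour was itself without an earlier factor in 38.1% of cases, against 33.1% for the other sites and a share of 34.8% in the whole list. Chained at gaps of up to 20000 bp, 414 sites fell into 187 groups of 2 or more, and 1498 stood by themselves.

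Within the chains with the most sites, the sites did not share 1 DHS record. The only chain of 5 spanned 18566 bp on chromosome 10 at 117166497 to 117185062, with 5 sites without an earlier factor among 7 PPARgamma day 6 peaks. Of its sites, 1 was in all 6 DHS lists, 1 in those of day 0, day 1 and day 6, and 3 in none. Of 6 chains with 4 sites each, those with the largest summed peak width are described. The one on chromosome 2 at 172935707 to 172978573 spanned 42867 bp and held no other PPARgamma day 6 peak. Its last 2 sites, at 172958213 to 172959013 and 172976941 to 172978573, were in the day 6 DHS list alone, and its first 2 were in none. In the one on chromosome 11 at 21442655 to 21470033 (27379 bp), 2 of 4 sites were in the day 6 DHS list alone, at 21442655 to 21443309 and 21461305 to 21461998. No site of these 3 chains held RNA Pol II.

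Sites without an earlier factor were spread over chromosomes 1 to 19 and X in proportion to PPARgamma binding, with 1 exception. They made up 34.8% of the whole list and between 28.6% (chromosome 14, 44 of 154) and 38.0% (chromosome 7, 92 of 242) on every chromosome other than 11. On chromosome 11 they were 147 of 320 peaks (45.9%, 40.4 to 51.6), and this was 1 of 20 chromosomes whose interval left out 34.8%. Chromosome 11 held 7.69% of these sites, against 4.83% of the other PPARgamma sites. It held 5.18% of the peaks in the 10 earlier lists and 6.21% of the peaks of all lists. Of its 147 sites, 25.2% were in the day 6 DHS list, 56.5% in no DHS list and 14.3% in an RNA Pol II list, against 19.98%, 66.5% and 8.58% of all sites without an earlier factor. Without chromosome 11 the overall shares hardly moved, with 19.5% in the day 6 DHS list and 67.4% in none. Chromosome 6 held the most sites, 217 (11.3%), but also 10.9% of the other PPARgamma sites. It held 8.55% of the peaks in the 10 earlier lists and 7.59% of the peaks of all lists. On all 20 chromosomes, sites without an earlier factor were in the DHS list of day 6 less often, and in no DHS list more often, than the other sites.

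**Figure D5:**
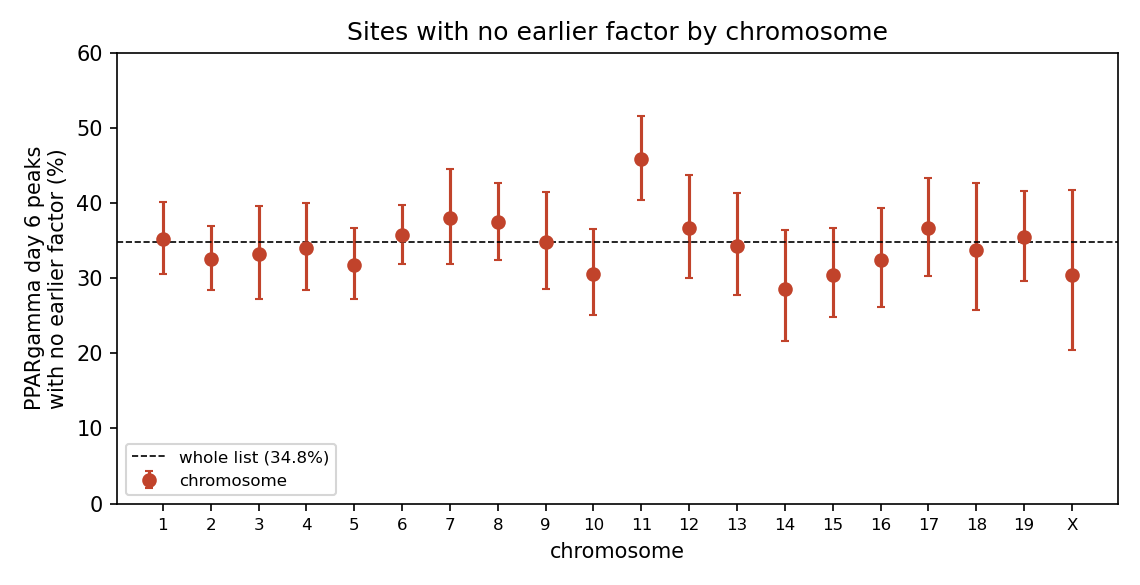
Share of PPARgamma day 6 peaks without an earlier factor (y axis, %) on each chromosome (x axis); points are shares, bars exact 95% intervals over peaks, and the dashed line the share in the whole list (34.8%). Chromosome 11 (45.9%) is the point whose interval lies off the line.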

How the data were processed

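Peak positions were read from 19 lists, 6 of DHS-seq and 13 of ChIP-seq. The remaining sample of 20, an input control without a list, was left out. Positions lie on mm9, per the submitters' processing notes. The peak caller, its threshold and the read depth are not given in the sources used here. Values the authors deposited are starts and ends in base pairs, printed here counted from 1, with no score. The intervals therefore rest on the number of peaks alone and leave out any spread between libraries.

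From these, overlap of at least 1 bp was scored between PPARgamma day 6 peaks and every other list, and shares were given with Clopper-Pearson 95% intervals (Python 3.11.15, NumPy 2.4.6, SciPy 1.17.1, Matplotlib 3.10.9). The overlap search was checked on planted overlaps. Regions were named by a fixed rule: the 5 widest sites, the 3 widest in no DHS list, in that of day 6 alone and in all 6, the 3 chains with the most sites at gaps of up to 20000 bp (ties by summed peak width) and the 3 sites farthest from an earlier factor. Sites and rules were chosen with earlier results of these data known. Whether leaving out early-bound sites by itself lowers early DHS shares was not tested. No mm9 genome or annotation was used here.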

Additional observations from a re-analysis of the deposited data

How the results depend on the processing

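Of 183 alternative values, 109 stayed within the counting interval, or within 1.5 times the reported count, 74 moved beyond it and 0 reversed. A reversal was scored only for differences whose interval left out 0. Counts, widths, single shares and RNA Pol II differences could therefore not be scored as reversed. All 70 differences in DHS from the other sites kept their sign, as did 13 of 16 for RNA Pol II. The RNA Pol II sign changed for both lists with the wider peaks only, and for day 0 with every peak set to 200 bp. The values below are for sites without an earlier factor, each against the other sites under the same alternative. The cause of each move was not tested unless the alternative's construction gives it. Using the wider PPARgamma peaks only (over 760 bp) left 730 sites with a median of 890.5 bp. Shares in the DHS lists of day 1, day 2 and day 6 were 20.3%, 28.5% and 28.1%, against 58.2%, 78.9% and 44.4%. In no DHS list were 57.9%, against 15.9%, and in that of day 6 alone 8.63%, against 1.44%. RNA Pol II shares were 9.18% on day 0, against 8.81%, and 8.63% at 4 hours, against 8.47%. Leaving both day 2 lists out of the rule gave 3050 sites (median 741 bp). DHS shares of day 1, day 2 and day 6 were 20.1%, 37.7% and 22.4%, against 70.2%, 80.6% and 41.4%. In no DHS list were 54.5%, against 12.8%, and in that of day 6 alone 4.13%, against 0.696%. Overlap of 50% of the shorter peak gave DHS shares of 4.48% (day 0), 11.0% (4 hours), 15.3% (day 1) and 18.1% (day 6). The other sites had 12.4%, 41.5%, 54.4% and 35.7%. RNA Pol II shares were 6.01% (day 0) and 5.50% (4 hours), against 6.60% and 6.15%. With a gap of up to 500 bp, shares moved in all DHS lists but that of day 2. In order of time they were 7.70%, 5.25%, 14.8%, 19.9% and 22.1%, against 16.1%, 20.9%, 45.7%, 57.8% and 38.8%. No DHS list held 64.3%, against 18.5%, and RNA Pol II shares were 8.55% and 8.38%, against 10.2% and 9.60%. With every peak set to 200 bp the 6 DHS shares in order of time were 2.60%, 2.10%, 7.11%, 11.4%, 18.3% and 13.9%. The other sites had 9.48%, 15.7%, 34.0%, 46.3%, 64.5% and 29.7%. No DHS list held 72.2%, against 25.6%, and RNA Pol II shares were 3.49% and 2.77%, against 3.47% and 2.92%. In 200 bp at the middle of the sites, shares again moved in all DHS lists but that of day 2. They were 4.24%, 2.88%, 10.8%, 14.8% and 17.1% in order of time, against 12.1%, 18.3%, 40.6%, 52.8% and 33.9%. No DHS list held 69.0%, against 21.1%, and RNA Pol II shares were 5.60% and 5.23%, against 6.26% and 5.70%. Lists of equal length gave 5.75%, 6.22%, 8.58% and 14.3% for DHS of 4 hours, day 1, day 2 and day 6. The other sites had 18.4%, 23.5%, 40.6% and 27.9%. No DHS list held 81.8%, against 47.6%, and that of day 6 alone held 6.54%, against 5.08%. Leaving out DHS peaks under 251 bp on day 1 and day 6, chromosome 11 or the 2 hours list moved none of the shares beyond its interval. The last 2 settings, and all values for no list and for day 6 alone, were chosen after seeing the data. Median width was not recomputed at 200 bp, where it is fixed. No paired analysis was possible because each group holds 1 library.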
